A study of Mus musculus with 6 samples.

Results

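The genes described here are 10 genes of T cell costimulation and inhibition together with the regulatory T cell factor Foxp3. They were taken as every probe set annotated to exactly 1 of Icos, Icosl, Ctla4, Cd28, Cd80, Cd86, Pdcd1, Cd274, Pdcd1lg2 or Foxp3, which gave 10 probe sets, 1 for each gene, among 24173 probe sets and 16537 genes tested in all. A further probe set annotated to Ccdc22, Foxp3 and Ppp1r3f together was left out. The genes were chosen by name with their log2 differences between these same 6 arrays in view, so those differences are a description, and nothing is read from the number that passed a test.

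Microarrays measured RNA of whole mouse lung, 3 samples labelled Falcor-null and 3 wild type, all of the CD1_C57Bl6_mix strain label and all after naphthalene, a compound that club cells of the airway turn into a toxic metabolite. Falcor is a long non-coding RNA gene next to Foxa2, and the null genotype is Falcor-/- in the design text. Each sample carried a day of its own after naphthalene, 31, 32 and 33 for Falcor-null and 28, 29 and 30 for wild type, so day and genotype cannot be told apart. These labels climb by 1 from sample to sample, and whether they are true sampling days is not known. Nothing in the labels says how old the animals were, how the allele was made or whether each lung was a separate animal. All p-values therefore rest on the variation among the 6 samples, part or all of which may be technical. No group without naphthalene was analysed here, so the injury itself has no baseline.

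The probe set of Falcor (listed as 9030622O22Rik) read 6.82, 6.34 and 6.32 log2 on the arrays labelled Falcor-null and 4.69, 5.01 and 5.45 on the wild-type arrays, a log2 difference of 1.44 (SE 0.21, limma adjusted p 0.0423), which goes against its label. It is unknown here whether the allele removes what this probe set detects, and every direction given is for arrays as labelled. Foxa2 read 8.13 ± 0.07 on the arrays labelled Falcor-null and 7.86 ± 0.03 on the wild-type arrays (SD, n = 3 each; limma adjusted p 0.175). Correlations between arrays across probe sets were 0.982 to 0.986 within a group and 0.970 to 0.976 between groups. Genes of lung tissue were bright in both groups, with the surfactant gene Sftpc, picked after its values were seen, at 13.6 log2 in both and the endothelial adhesion gene Pecam1 at 11.4 log2 on the arrays labelled Falcor-null and 11.2 log2 on the wild-type arrays.

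A T cell needs a second signal beside its antigen receptor. Cd28 gives that signal when it binds Cd80 or Cd86 on an antigen-presenting cell, and Ctla4 competes for the same ligands and restrains the cell. Icos, a relative of both, binds Icosl and supports helper and regulatory T cells, and Pdcd1 (PD-1) dampens T cells that meet Cd274 (PD-L1) or Pdcd1lg2 (PD-L2). Foxp3 is the transcription factor that defines regulatory T cells, which carry much Ctla4 and Icos and hold immune responses in tissues such as lung in check.

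Cd28, Ctla4 and Icos follow each other without another protein-coding gene between them on mouse chromosome 1, and Cd274 and Pdcd1lg2 do the same on chromosome 19, in the gene order of RefSeq's GRCm38.p6 annotation. Pdcd1 lies elsewhere on chromosome 1, Icosl on chromosome 10, Cd80 and Cd86 apart from each other on chromosome 16 and Foxp3 on chromosome X. RefSeq promoter windows of 300 bases, 250 before and 50 after an annotated start, were matched by symbol for 7 of the 10 genes, Foxp3 having 2 such starts. Icos, Cd28 and Cd86 had none.

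The windows of Ctla4, Cd80 and the upstream start of Foxp3 are shown. These were the genes with the largest falls or differences among those with a window. The window of Icosl is shown because it was among the least different, though Pdcd1 (-0.28) differed less. All 4 are on the plus strand of GRCm38.p6. Capitals mark TATAAA, the TATA box, and GGAAA, the core bound by NFAT, a factor that T cell activation switches on; both strands were searched, so that TTTATA and TTTCC are capitals as well, and no marked matches of different motifs overlap.
Ctla4 (chr1:60908775-60909074): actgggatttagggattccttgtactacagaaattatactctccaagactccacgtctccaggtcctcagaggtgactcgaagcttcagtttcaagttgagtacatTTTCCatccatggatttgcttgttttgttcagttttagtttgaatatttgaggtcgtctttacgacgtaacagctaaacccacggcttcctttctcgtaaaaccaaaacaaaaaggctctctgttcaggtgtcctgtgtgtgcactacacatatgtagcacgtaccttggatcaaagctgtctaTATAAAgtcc
Foxp3 (chrX:7579426-7579725): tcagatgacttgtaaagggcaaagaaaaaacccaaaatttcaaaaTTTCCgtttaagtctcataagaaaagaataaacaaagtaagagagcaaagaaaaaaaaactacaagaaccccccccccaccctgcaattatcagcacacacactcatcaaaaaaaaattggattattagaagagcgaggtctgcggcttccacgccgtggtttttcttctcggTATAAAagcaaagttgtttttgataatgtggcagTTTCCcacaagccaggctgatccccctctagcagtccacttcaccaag
Cd80 (chr16:38458683-38458982): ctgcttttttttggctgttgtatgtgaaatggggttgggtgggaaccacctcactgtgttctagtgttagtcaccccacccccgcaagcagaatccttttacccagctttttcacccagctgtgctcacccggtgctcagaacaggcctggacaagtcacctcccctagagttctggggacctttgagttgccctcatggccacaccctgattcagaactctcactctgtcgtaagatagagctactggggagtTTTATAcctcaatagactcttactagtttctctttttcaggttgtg
Icosl (chr10:78069118-78069417): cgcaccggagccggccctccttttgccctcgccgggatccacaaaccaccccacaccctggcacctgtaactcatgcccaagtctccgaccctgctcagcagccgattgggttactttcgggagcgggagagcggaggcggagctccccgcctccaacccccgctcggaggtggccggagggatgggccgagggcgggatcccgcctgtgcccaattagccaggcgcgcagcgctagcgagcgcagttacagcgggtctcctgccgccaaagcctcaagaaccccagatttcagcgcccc

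GGAAA was found in 61.3% of all 32851 windows of this length and TATAAA in 13.6%. The windows not shown held GGAAA too, with 2 matches each in Pdcd1 and Cd274. Those of Pdcd1lg2 and the other Foxp3 start held 1 each, and the Cd80 window held none. In the Foxp3 window TATAAA stood 32 to 27 bases before the start, while the match in Ctla4 lay 41 to 46 bases after the annotated start, and that in Cd80 lay 5 to 10 bases after it on the opposite strand. The Icosl window held neither motif and differed in composition, with 68% G and C and 26 CpG sites, against 42% and 8 in Ctla4, 40.7% and 6 in Foxp3 and 49.7% and 3 in Cd80. The median over all windows was 52.7% and 7 CpG sites. GGGCGG, the GC box, was found in the windows of Icosl, Cd274 and Pdcd1 and in 35.7% of all windows. TGANTCA, the AP-1 site, was found in that of Cd80 and in 7.81% of all windows. Matches are letters only, and none of them is shown here to be bound.

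All 10 genes had a lower mean on the arrays labelled Falcor-null than on the wild-type arrays, as did 49.2% of all genes. Icos, Ctla4 and Cd80 fell past an adjusted p of 0.05 over all genes in limma, 3 of 10, where 0.556% of all genes passed, 0.46% as lower and 0.0968% as higher. In 8 of the 10, every array labelled Falcor-null lay below every wild-type array, which was so for 10.6% of all genes, while 8.96% lay above without overlap. The median log2 difference of the 10 was -0.76, and that of all genes tested was 0.0026. In whole lung, fewer cells of a type and less RNA per cell cannot be told apart.

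**Figure D1:**
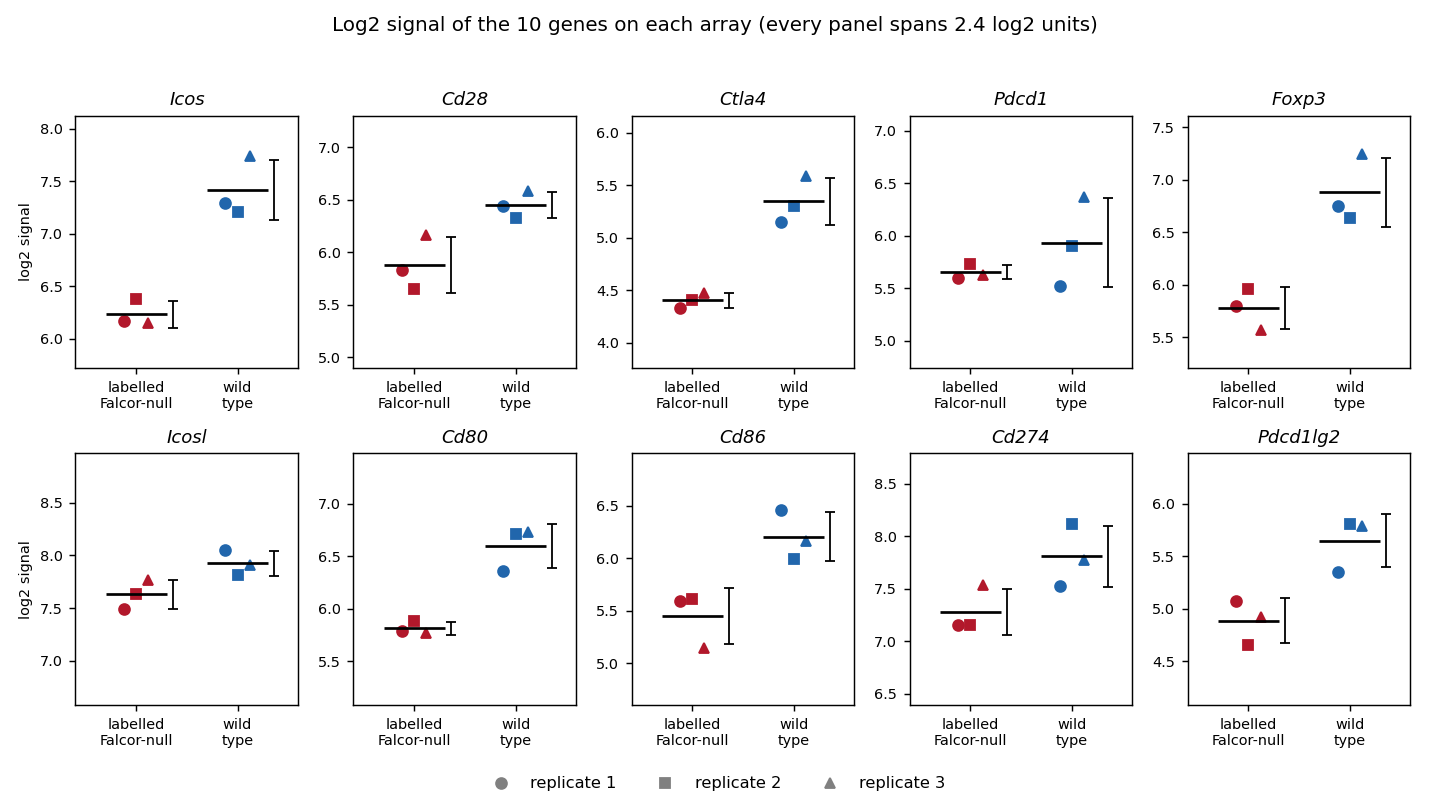
Log2 signal (vertical axis) of each gene on the 3 arrays labelled Falcor-null (red, left) and the 3 wild-type arrays (blue, right), with replicate numbers as symbols, group means as lines and SD as bars; each panel spans the same range. Receptors and Foxp3 are in the upper row and ligands in the lower, and the groups overlap in Pdcd1 and Cd274.

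Icos, the inducible costimulatory receptor, showed the largest difference of the 10. Its log2 signal was 6.17, 6.38 and 6.15 on the arrays labelled Falcor-null and 7.29, 7.21 and 7.74 on the wild-type arrays (probe set 17213490). The highest array labelled Falcor-null lay 0.83 below the lowest wild-type array. Icos fell 2.26-fold, with a log2 difference of -1.18 (SE 0.15, 95% interval -1.53 to -0.83) and a limma adjusted p of 0.0267. The call depended on single arrays: the adjusted p was 0.101, 0.0777 and 0.0764 without Falcor-null replicate 1, 2 and 3 and 0.0546 without wild type replicate 2, with log2 differences of -1.15, -1.25, -1.14 and -1.28.

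Ctla4, the inhibitory receptor for Cd80 and Cd86, read 4.33, 4.41 and 4.47 on the arrays labelled Falcor-null and 5.15, 5.31 and 5.59 on the wild-type arrays (probe set 17213478). Again no array of one group reached the other. Ctla4 fell 1.92-fold (log2 difference -0.94, SE 0.12, 95% interval -1.22 to -0.66, limma adjusted p 0.0267). Its signal was dim: the mean over the 6 arrays stood at the 8.84th percentile of all genes, and the lowest mean of any gene was 4.34, close to the values on the arrays labelled Falcor-null. How far these lie above background is unknown. The call was lost without Falcor-null replicate 1 (-0.91, adjusted p 0.102), 2 (-0.94, 0.0987) or 3 (-0.98, 0.0749) and without wild type replicate 2 (-0.96, 0.0955).

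Foxp3, the regulatory T cell factor, read 5.80, 5.97 and 5.57 on the arrays labelled Falcor-null and 6.75, 6.64 and 7.25 on the wild-type arrays (probe set 17532811). The groups were 0.68 apart at their nearest arrays. The log2 difference was -1.10 (SE 0.18, 95% interval -1.51 to -0.69), 2.15-fold lower, and its limma adjusted p of 0.0534 did not pass. It passed with an intensity trend in the variance (adjusted p 0.0377) and with the dimmest genes, below the 30th percentile, left out (0.0422). The probe set shared by Ccdc22, Foxp3 and Ppp1r3f read 6.75 on average on the arrays labelled Falcor-null and 6.78 on the wild-type arrays, a difference of -0.03, and which of the 3 genes it reports is not known here.

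Cd28, the primary costimulatory receptor of T cells, read 5.83, 5.65 and 6.17 on the arrays labelled Falcor-null and 6.45, 6.33 and 6.58 on the wild-type arrays (probe set 17213462). Its groups did not overlap, with 0.16 between the nearest arrays. The log2 difference of -0.57 (SE 0.14, 95% interval -0.90 to -0.24) did not pass (limma adjusted p 0.141). Pdcd1, the inhibitory receptor PD-1, read 5.60, 5.74 and 5.63 on the arrays labelled Falcor-null and 5.53, 5.91 and 6.37 on the wild-type arrays (probe set 17225801). Here the wild-type arrays spread over the whole range of the others, and the log2 difference of -0.28 (SE 0.19, 95% interval -0.73 to 0.17, limma adjusted p 0.577) was smaller than the wild-type SD of 0.42. Its interval holds 0.

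Among the ligands, Cd80, which antigen-presenting cells show to Cd28 and Ctla4, read 5.79, 5.89 and 5.77 on the arrays labelled Falcor-null and 6.36, 6.71 and 6.73 on the wild-type arrays (probe set 17325608). The arrays labelled Falcor-null lay close together (SD 0.06) and below all wild-type arrays (SD 0.21). Cd80 fell 1.72-fold (log2 difference -0.79, SE 0.11, 95% interval -1.05 to -0.52, limma adjusted p 0.0407). It kept an adjusted p under 0.05 when wild type replicate 1 was left out (-0.91, 0.0333). It did not pass without Falcor-null replicate 1, 2 or 3 (-0.77, -0.82 and -0.76, adjusted p 0.142, 0.111 and 0.102) or wild type replicate 2 or 3 (-0.73 and -0.72, adjusted p 0.141 and 0.119).

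Cd86, the other ligand of that pair of receptors, read 5.59, 5.61 and 5.14 on the arrays labelled Falcor-null and 6.45, 5.99 and 6.16 on the wild-type arrays (probe set 17330203). The groups were separate, and the log2 difference of -0.75 (SE 0.17, 95% interval -1.14 to -0.37) was nearly that of Cd80 but did not pass (limma adjusted p 0.107). Pdcd1lg2, the second ligand of PD-1, read 5.08, 4.66 and 4.93 on the arrays labelled Falcor-null and 5.36, 5.81 and 5.79 on the wild-type arrays (probe set 17358552). Its log2 difference was -0.76 (SE 0.16, 95% interval -1.12 to -0.40, limma adjusted p 0.0956), again with groups apart and no call.

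Cd274, the more widely expressed PD-1 ligand, read 7.15, 7.16 and 7.54 on the arrays labelled Falcor-null and 7.53, 8.12 and 7.77 on the wild-type arrays (probe set 17358544). The groups touched, Falcor-null replicate 3 and wild type replicate 1 being alike, and the log2 difference of -0.53 (SE 0.17, 95% interval -0.92 to -0.13) had a limma adjusted p of 0.236. Icosl, the ligand of Icos, read 7.49, 7.63 and 7.76 on the arrays labelled Falcor-null and 8.05, 7.82 and 7.91 on the wild-type arrays (probe set 17234786). The nearest arrays of the groups were only 0.06 apart, and the log2 difference was -0.30 (SE 0.10, 95% interval -0.53 to -0.06, limma adjusted p 0.259).

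**Figure D2:**
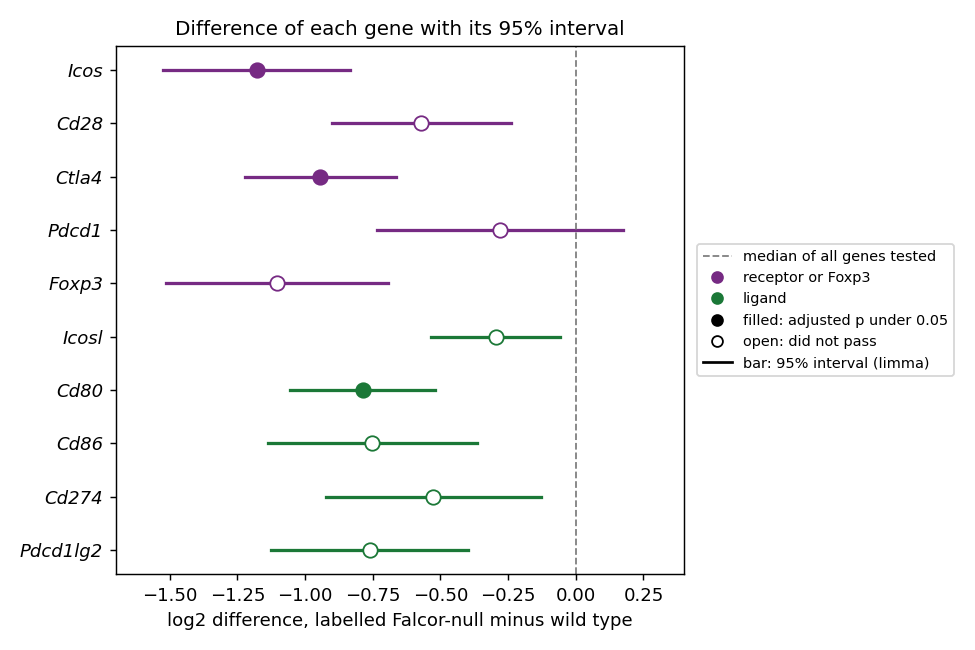
Log2 difference of the arrays labelled Falcor-null minus wild type (horizontal axis) for each gene, with its 95% interval from limma as a bar; filled points passed an adjusted p of 0.05 over all genes and the dashed line is the median of all genes. Icos (-1.18) lies farthest from that line and Pdcd1 (-0.28) nearest, with an interval that crosses 0.

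Receptors and their ligands were compared on the same arrays, as the difference of their log2 differences, in 7 pairs chosen after the values were seen. The log2 difference of Icos minus that of Icosl was -0.88, and the groups did not overlap in this per-array quantity. The exact two-sided permutation p was 0.1, the smallest that 3 arrays against 3 allow, and 0.467 adjusted over the 7 pairs. The other 6 pairs overlapped between the groups. Pdcd1 minus Pdcd1lg2 gave 0.48, Pdcd1 minus Cd274 gave 0.25, Cd28 minus Cd80 gave 0.22 and Ctla4 minus Cd80 gave -0.16, with exact p-values from 0.2 to 0.5. Cd28 minus Cd86 gave 0.18 and Ctla4 minus Cd86 gave -0.19, each with an exact permutation p of 0.8.

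Within the wild-type group, replicate 3 was the highest array for Icos, Ctla4, Cd28, Pdcd1 and Foxp3, all 5 of the genes expressed by the T cell, but for only 1 of the 5 ligands, Cd80. Cd274 and Pdcd1lg2 were highest on wild type replicate 2, and Cd86 and Icosl on wild type replicate 1. Among the arrays labelled Falcor-null, replicate 2 was highest for Icos, Pdcd1 and Foxp3 and for the ligands Cd80 and Cd86, and lowest for Cd28 and Pdcd1lg2. Wild type replicate 3 also had the highest neutrophil marker mean, 8.64 log2, against 7.29 and 7.39 on the other wild-type arrays. Without this array Icos differed by -1.02, Ctla4 by -0.82 and Foxp3 by -0.92 (limma adjusted p 0.0289, 0.0404 and 0.0797). Cd28 then differed by -0.51, and Pdcd1 by -0.06 (adjusted p 0.887), while the value of Pdcd1 was -0.48 without wild type replicate 1.

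The nearest measured protein-coding genes on each side of the 10 served to show whether their differences extended along the chromosome. Raph1 and Pard3b, on either side of the Cd28, Ctla4 and Icos group, differed by 0.09 and 0.09 (limma adjusted p 0.719 and 0.652). Plgrkt and Ric1, on either side of Cd274 and Pdcd1lg2, differed by -0.01 and -0.01. Over the 14 distinct neighbours of all 10 genes, 6 were lower and 8 higher, from -0.18 for Gatd3a beside Icosl to 0.16 for Neu4 beside Pdcd1. None of the 14 passed in limma, where 0.556% of all genes did. An unadjusted p under 0.05 was reached by 0 of them and by 13.8% of all genes, so these counts among 14 say little. Pard3b and Neu4 were higher without overlap, as were 8.96% of all genes. These neighbours were looked up after the values were seen.

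**Figure D3:**
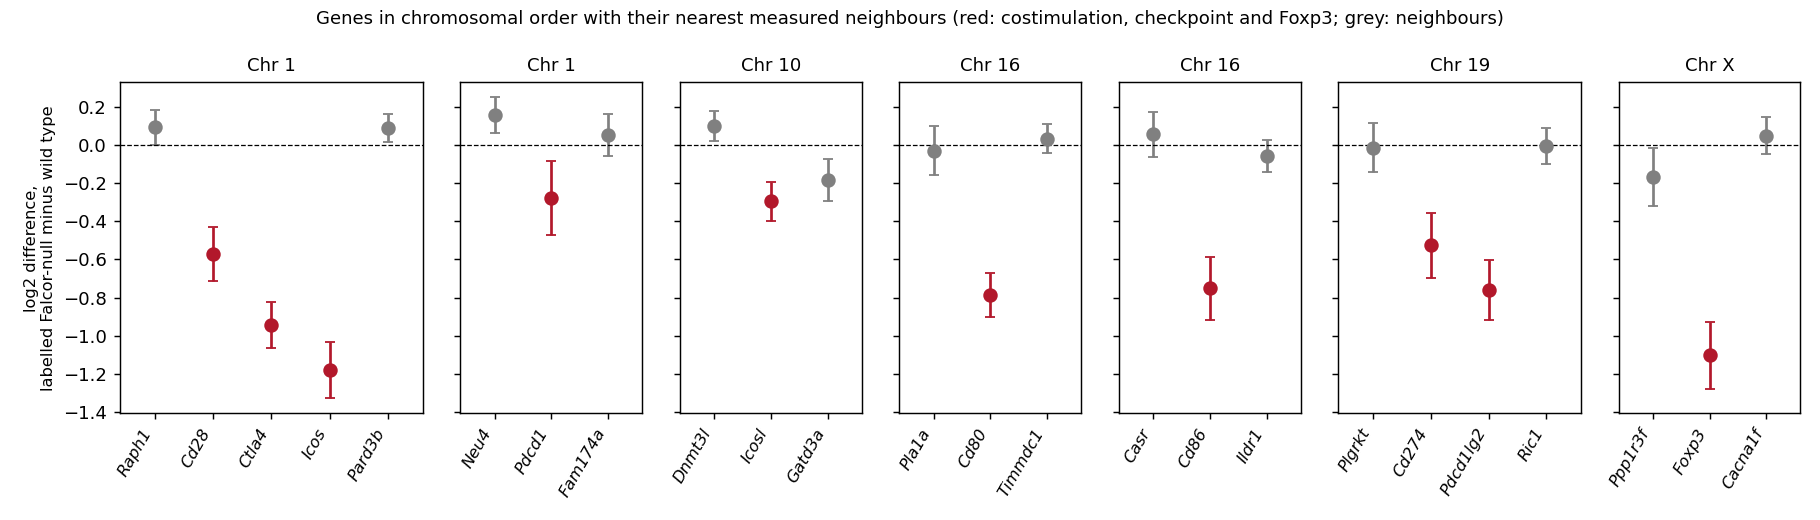
Log2 difference of the arrays labelled Falcor-null minus wild type (vertical axis, bars are SE from limma) for the 10 genes (red) and their nearest measured protein-coding neighbours (grey), in chromosomal order and not to scale along the chromosome. The neighbours lie between -0.18 and 0.16, above all the red points.

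The T cell's antigen receptor genes differed in the same direction. Of 9 measured genes of the T cell receptor complex and coreceptor list, all were lower on the arrays labelled Falcor-null and 3 passed the test over all genes, Cd3e (-1.20, limma adjusted p 0.00949), Cd4 (-1.23, 0.0131) and Cd3g (-1.15, 0.0324). Without Falcor-null replicate 2, Cd3e had an adjusted p of 0.0529 and Cd4 of 0.0687, Cd4 had 0.0546 without wild type replicate 2, and Cd3g did not pass with any single array left out (0.0518 to 0.0989). Cd2, an adhesion receptor of T cells, gave -0.62 (adjusted p 0.0582). The list's mean log2 signal was 6.25, 6.26 and 6.45 on the arrays labelled Falcor-null and 7.08, 6.88 and 7.14 on the wild-type arrays, a difference of -0.71.

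Each of the 10 genes was set against that list mean on the same array, so that a value of 0 means the same difference as the list. Icos differed by a further -0.47 than the list mean, without overlap of the groups. Its relative mean was -0.08 on the arrays labelled Falcor-null and 0.38 on the wild-type arrays. The list's own genes ran from -1.23 to -0.35. Cd4 (-1.23), Cd3e (-1.20) and Cd3g (-1.15) differed about as much as Icos (-1.18), so Icos went further than the mean but not further than these genes. Icosl went the other way, with 1.31 on the arrays labelled Falcor-null and 0.90 on the wild-type arrays, a relative difference of 0.42 without overlap. Relative to this list, 0.218% of all genes were lower without overlap and 90.4% higher without overlap, so that the value of Icosl is what most genes showed. Both had an exact two-sided permutation p of 0.1, the smallest possible with 3 against 3, and 0.5 adjusted over the 10 genes.

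The other 8 genes overlapped between the groups on this scale. Foxp3 differed by -0.39 (exact permutation p 0.2) and Ctla4 by -0.23 (exact permutation p 0.3), and Cd80, Cd86 and Pdcd1lg2 by -0.07, -0.04 and -0.05. Cd28, Cd274 and Pdcd1 gave 0.14, 0.19 and 0.43. With 3 arrays against 3 the exact test cannot reach 0.05 for any of the 10, so it decides neither that a gene differed from the receptor genes nor that it did not. Single arrays weighed on several of these values. Without Falcor-null replicate 3, Foxp3 gave -0.22 and Cd28 0.06, and without wild type replicate 1, Cd274 gave 0.03 and Pdcd1 0.21.

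**Figure D4:**
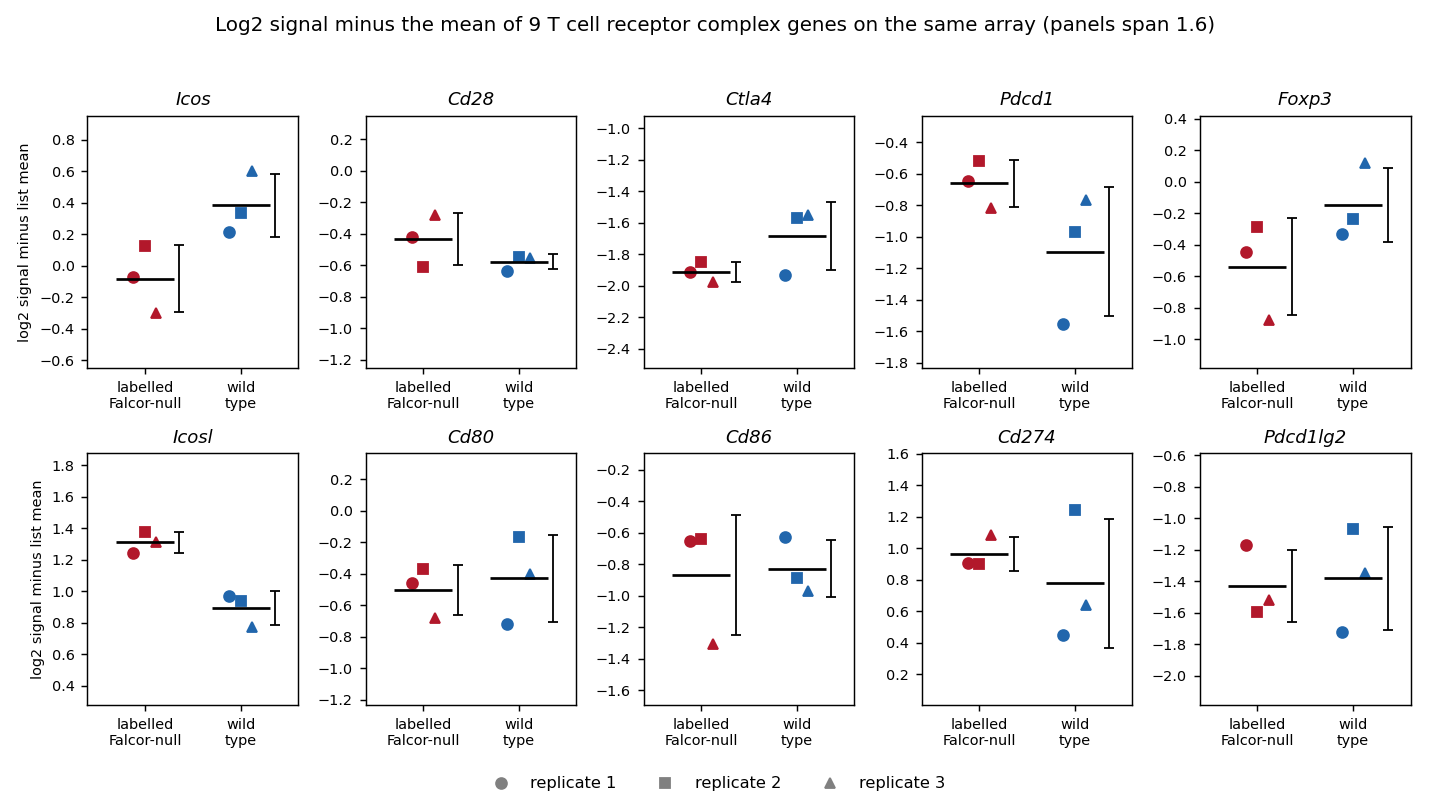
Log2 signal of each gene minus the mean of 9 T cell receptor complex genes on the same array (vertical axis), for the 3 arrays labelled Falcor-null (red, left) and the 3 wild-type arrays (blue, right), with group means as lines and SD as bars. Against this mean Icos is lower (difference -0.47) and Icosl higher (0.42) without overlap, while the groups overlap in the other 8 panels.

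Other costimulatory and inhibitory molecules were counted in the same fit. Of 18 measured genes of the list of other such receptors and ligands, 15 were lower and 3 higher, none passed in limma after adjustment and 10, all of them lower, had an unadjusted p under 0.05, where 7.65% of all genes were lower at that level. The list's median log2 difference was -0.34. Cd200r1, an inhibitory receptor of myeloid and T cells, gave -1.01 (adjusted p 0.0856), the SLAM family receptor Slamf6 -0.66 (0.0742), the inhibitory receptor Lag3 -0.57 (0.107) and the SLAM ligand Cd48 -0.57 (0.115). The ligand genes Cd276, Vtcn1 and Nectin2 were the 3 that were higher, by 0.28, 0.24 and 0.15, and were named after their values were seen (adjusted p 0.444, 0.535 and 0.535).

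In the TNF family of costimulatory molecules, 8 of 10 measured genes were lower and 2 higher, with a median of -0.16 and none passing after adjustment in limma. At an unadjusted p under 0.05 there were 4 lower and 1 higher. The activation-induced receptor Tnfrsf9 (4-1BB) gave -0.73 and its ligand Tnfsf9 -0.94, with limma adjusted p-values of 0.0939 and 0.103. Tnfsf8, the ligand of CD30, gave -0.54 (0.0868), and Tnfrsf4 (OX40) -0.28 (0.281).

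Of 22 measured genes of signalling below the T cell receptor and Cd28, 16 were lower and 6 higher, with a median of -0.21. Lat and Lcp2 (SLP-76), the adaptor proteins that assemble the receptor's signalling complex, passed. Lat read 6.62 ± 0.11 on the arrays labelled Falcor-null and 7.27 ± 0.08 on the wild-type arrays, 1.57-fold lower (limma adjusted p 0.0324). Lcp2 read 8.18 ± 0.19 on the arrays labelled Falcor-null and 9.10 ± 0.22 on the wild-type arrays, 1.89-fold lower (adjusted p 0.0477; SD, n = 3 each). The exchange factor Vav1 gave -0.73 (0.0748) and the inhibitory phosphatase Ptpn6 -0.51 (0.0854). Like Lat and Lcp2, both are found in other blood cells too. Lat had an adjusted p of 0.0541 to 0.124 with any single array left out, and Lcp2 passed only without wild type replicate 1 (0.0413) and had 0.0853 to 0.155 in the other 5 fits.

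The regulatory T cell list, which leaves out Foxp3, Ctla4 and Icos, had 17 of 22 measured genes lower and 5 higher, with a median of -0.21. None passed after adjustment in limma and 9, all lower, had an unadjusted p under 0.05. The chains Il2rb and Il2ra of the interleukin 2 receptor, on which regulatory T cells depend, gave -0.60 and -0.67 (limma adjusted p 0.0817 and 0.103), the chemokine receptor Ccr8 -0.90 (0.115) and the Helios gene Ikzf2 -0.32 (0.118). Several genes of this list are also made by other cells of the lung. The 5 that were higher, picked after their values were seen, were Nt5e (0.23), Satb1 (0.17), Lrrc32 (0.13), Nrp1 (0.10) and Cbfb (0.07). Of 7 measured genes of follicular helper T cells, which need Icos, 6 were lower and 1 higher (median -0.26). None passed in limma, and 5 had an unadjusted p under 0.05. Sh2d1a gave -0.54 (adjusted p 0.111), Tox -0.57 (0.115), Bcl6 -0.26 (0.240) and Cxcr5 -0.26 (0.281).

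**Figure D5:**
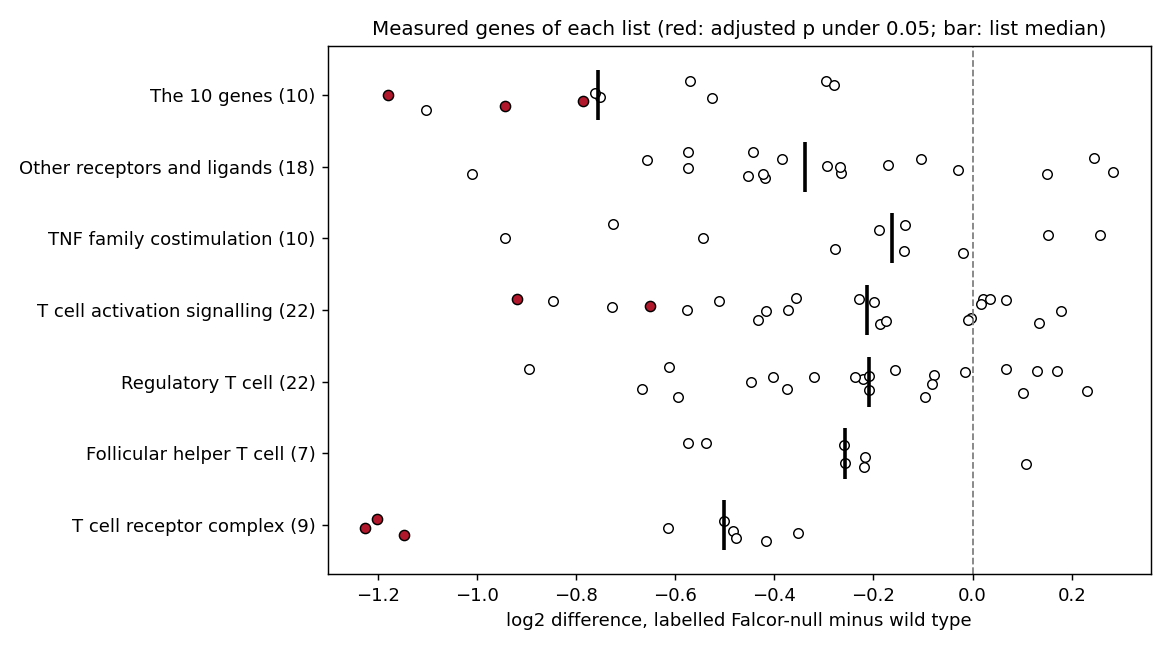
Log2 difference of the arrays labelled Falcor-null minus wild type (horizontal axis) for every measured gene of the costimulation and T cell lists, with the number measured in brackets, list medians as bars and genes with an adjusted p under 0.05 over all genes in red. The costimulation and checkpoint genes have a median of -0.76 and the T cell receptor complex list -0.50. The means of these lists, not plotted, differed by nearly the same amount, -0.72 and -0.71. The medians of the 5 other lists plotted lie between -0.34 and -0.16, and the marker lists of other cells are not plotted.

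Marker lists of other immune cells were measured on the same arrays, and the part of those cells in the differences of the 10 genes was not tested. All 8 measured B cell genes were lower, with 1 passing (Cd79a, a chain of the B cell receptor, -0.75, limma adjusted p 0.0282), and the surface protein gene Ms4a1 (CD20) gave -0.65 (0.0748). Cd79a passed with 1 array left out only without wild type replicate 3 (0.0404) and had 0.0674 to 0.101 in the other 5 fits. The list had a median of -0.55, and its mean log2 signal was 5.98 to 6.11 on the arrays labelled Falcor-null and 6.53 to 6.75 on the wild-type arrays. Of 11 measured dendritic cell genes, whose cells carry Cd80, Cd86 and Pdcd1lg2, 9 were lower, with 6.83 to 6.91 on the arrays labelled Falcor-null and 7.18 to 7.36 on the wild-type arrays (median difference -0.30). Irf4, a factor of dendritic cells and also of activated lymphocytes, passed (-0.87, adjusted p 0.018), but not without Falcor-null replicate 1, 2 or 3 (0.0709, 0.0777 and 0.0581) or wild type replicate 2 (0.0671). The homing receptor Ccr7 gave -0.61 (0.115), Itgax -1.12 (0.181) and Irf8 -0.30 (0.198), while Cd209a and Zbtb46 were higher by 0.24 and 0.12 (0.497 and 0.695; named after their values were seen).

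All 10 measured alveolar macrophage genes were lower, with means of 8.02 to 8.60 on the arrays labelled Falcor-null and 8.65 to 9.25 on the wild-type arrays, as were 7 of 8 of monocytes and interstitial macrophages, with 7.76 to 7.94 on the arrays labelled Falcor-null and 8.20 to 8.34 on the wild-type arrays, and all 7 of neutrophils, with 6.56 to 6.84 on the arrays labelled Falcor-null and 7.29 to 8.64 on the wild-type arrays. None of these passed in limma after adjustment, and 6, 5 and 4 of them were lower at an unadjusted p under 0.05. The median log2 differences of the 3 lists were -0.60, -0.45 and -0.88, that of neutrophil genes being below the -0.76 of the 10 genes. Chil3 gave -1.12 (adjusted p 0.0748), Cd14 -0.69 (0.0791) and Mmp9 -0.85 (0.133). Of 7 measured genes of NK and innate lymphoid cells, 5 were lower and none passed with or without adjustment, with Klrk1 at -0.31 (0.486), and the list's means overlapped, 6.06 to 6.28 on the arrays labelled Falcor-null and 6.12 to 6.44 on the wild-type arrays.

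In lymph node stroma and vessel markers, Cxcl13, the chemokine of B cell follicles, was 2.91-fold lower (8.06 log2 on the arrays labelled Falcor-null and 9.60 on the wild-type arrays, limma adjusted p 0.0147). It did not pass without Falcor-null replicate 1 (0.0513) or 2 (0.0687). The lymph node vessel genes Glycam1 and Madcam1 read 4.66 and 5.08 on the arrays labelled Falcor-null and 4.93 and 5.11 on the wild-type arrays, both dim. All 4 measured genes of this list were lower, with means of 5.70 to 5.81 on the arrays labelled Falcor-null and 6.12 to 6.46 on the wild-type arrays. The list's median log2 difference was only -0.26, against -1.54 for Cxcl13. Madcam1 (-0.03) and Chst4 (-0.25) overlapped between the groups. The 5 measured thymus genes gave 5.33 to 5.54 on the arrays labelled Falcor-null and 5.43 to 5.54 on the wild-type arrays, with Themis at -0.33 (adjusted p 0.361) and a median of -0.08. Of 10 genes of lung tissue 9 were higher and 1 lower, with means of 11.4 to 11.5 on the arrays labelled Falcor-null and 11.3 to 11.4 on the wild-type arrays a median difference of 0.12 and Ager at 0.24 (0.283).

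Several of the 10 genes had low signal. When all genes were ordered by mean signal and cut into 10 bins of equal size, the median log2 difference of a bin ran from -0.02 to 0.05. In the dimmest bin, which holds Ctla4, it was 0.05, with 36.5% of genes lower and 4.84% lower without overlap.

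The 5 genes outside the 10 whose profile over the 6 arrays was closest to the mean of Icos, Ctla4, Cd28, Pdcd1 and Foxp3 were Proz, Selplg, Cd14, Rac2 and Il2ra. Gene models without an official name, small RNA genes and immunoglobulin and T cell receptor segments were passed over. So were olfactory and vomeronasal receptor genes. The measure was the root-mean-square distance of mean-centred log2 values, 0.06 for Proz and 0.12 for Il2ra. Of the genes that define the mean, Ctla4 lay at 0.08, Foxp3 at 0.19, Icos at 0.20, Cd28 at 0.22 and Pdcd1 at 0.29. Among the ligands, Cd80 lay at 0.13, nearer than Foxp3, Icos, Cd28 and Pdcd1, and Icosl at 0.32. The log2 differences of Proz, Selplg, Cd14, Rac2 and Il2ra were -0.75, -0.82, -0.69, -0.68 and -0.67. A profile like that of these members is low on the arrays labelled Falcor-null by the way it was picked, so these values are a description with no test.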

How the data were processed

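RNA of 6 whole-lung samples from mice was measured on single-channel arrays. The authors deposited 1 log2 value per probe set and array, made with RMA in oligo per the submitters' processing notes, which also list limma and give no versions. RMA makes the arrays' distributions alike, so a shift of most genes would be removed. Row filters and the annotation build are not given in the sources used here. Depth has no meaning for arrays, and their number limits the precision.

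Genes were named through the platform annotation: 17476 probe sets had 1 symbol and were used, 1308 had several and 5389 had none. Where a gene had several probe sets, the brightest stood for it, leaving 16537 genes. Falcor-null minus wild type was fitted by lmFit and eBayes (limma 3.58.1, R 4.3.3) without covariates, two-sided, with Benjamini-Hochberg adjustment over all genes and a threshold of 0.05. Single contrasts on few values used exact permutation tests over arrays. Data of 16537 genes, 3 arrays against 3, were simulated with normal noise independent between genes and 50 genes changed at each size. The fit found 28% of changes of 0.5 log2, 84% of those of 1 and 100% of those of 2, with 4 false calls among 160. Genes on real arrays vary together, so these shares need not hold for the calls given here.

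The members and all lists were chosen with earlier results of these data known. Named were the 10 genes, Falcor, Foxa2, up to 4 genes with the smallest p of each list and the 5 closest profiles; others are said to be picked after their values were seen. Of 199 genes in all lists, 168 had a usable probe set. Alternatives were a replicate block, other centring, normalization, variance and probe set rules, filters on dim genes and each array left out. Figures used matplotlib 3.10.9 in Python 3.11.15.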

Additional observations from a re-analysis of the deposited data

How the results depend on the processing

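Over all genes 92 passed, 3 of the 10 genes among them (Icos, Ctla4, Cd80) and 2 of the pathway lists (Lat, Lcp2). With each array left out in turn, 18 to 89 genes passed, 0 to 3 of the 10 and 0 to 3 of the pathway lists. With the replicate numbers as a replicate block, 32 genes passed and 0 of the 10, Icos, Ctla4 and Cd80 having adjusted p-values of 0.0842, 0.0515 and 0.0846 with the same log2 differences. The numbers were not found to pair the samples, since deviations from the group means of same-numbered arrays correlated by 0.0217, -0.0025 and -0.0814. With genes below the median mean signal left out, 0 of the 10 passed, because Icos, Ctla4 and Cd80 were then not tested. Of the pathway lists, 1 gene passed with arrays centred on their medians, with a second quantile normalization and with every probe set on its own. An intensity trend gave 131 genes and 4 of the 10, Foxp3 being added. No log2 difference of the 10 changed sign under any of the 14 to 16 alternatives run on each. This says little, since leaving out an array cannot turn the sign of a gene whose groups do not overlap. The replicate block, the variance rules without array weights and the filters on dim genes leave the difference itself unchanged.

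Relative to the T cell receptor complex list, leaving out single arrays gave -0.22 to 0.06 for Cd80, -0.15 to 0.18 for Cd86, -0.22 to 0.11 for Pdcd1lg2, 0.03 to 0.42 for Cd274, 0.06 to 0.23 for Cd28, 0.21 to 0.60 for Pdcd1, -0.51 to -0.22 for Foxp3, -0.35 to -0.16 for Ctla4, -0.57 to -0.36 for Icos and 0.36 to 0.46 for Icosl. The sign turned for Cd80 without Falcor-null replicate 3 (0.02) or wild type replicate 2 (0.059), for Cd86 without Falcor-null replicate 3 (0.18) or wild type replicate 1 (0.06), and for Pdcd1lg2 without Falcor-null replicate 2 (0.04) or wild type replicate 2 (0.11). The cause was not tested.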
